A study of Homo sapiens with 6 samples.

Results

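Kinesins are motor proteins that use ATP to walk along microtubules or to take microtubules apart at their ends. In dividing cells a set of mitotic kinesins builds the spindle, moves chromosomes and directs cytokinesis, while transport kinesins carry vesicles, mitochondria and ciliary cargo in cells that are not dividing and along the axons of neurons. Many mitotic kinesin genes are transcribed late in the cell cycle, and the cell cycle genes homology region (CHR), a short promoter element with the core TTTGAA, is known for this timing. The kinesin genes were taken from the expression table as the rows whose gene symbol was KIF followed by a number and at most a letter from A to C, or KIFC1, KIFC2 or KIFC3. This rule found 39 of 37879 rows, and it used no measured value. By their textbook roles, 13 members were sorted as mitotic kinesins, 17 as transport kinesins and 9 as other kinesins. KIF4B, KIF22 and KIF26A had no row under these symbols and are not analysed here.

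The data were 6 Illumina HumanWG-6 bead arrays of total RNA from HEK293T cells, a transformed line derived from human embryonic kidney. All cells had been transfected with a plasmid and held in prometaphase with nocodazole, a drug that depolymerizes microtubules, at 50 ng/ml for 15 h by the labels, although the methods give a longer time. The control group had received the empty vector (n = 3 arrays) and the Stau1 group a plasmid for Stau155-FLAG (n = 3 arrays), the tagged short isoform of the double-stranded RNA-binding protein Staufen1, which the methods place under a Rous sarcoma virus promoter. The comparison asks which transcripts differed in level between Stau1-transfected and vector-transfected prometaphase cells, and the labels do not say whether replicates came from separate cultures, so p-values measure the spread between these samples, which may be technical.

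The arrays were close to each other, with Pearson correlations of 0.987 to 0.996 over the kept rows, those with a detection p-value under 0.05 on at least 3 of the 6 arrays. The STAU1 row read 11.19, 11.38 and 11.36 on the log2 scale in control and 11.39, 11.51 and 11.47 in Stau1, a fold of 1.11 with an adjusted p of 0.999 by limma, and whether its probes can read the plasmid transcript was not tested. Among the markers chosen for HEK293T cells, NEFL, NEFM and VIM were detected on all 6 arrays and LHX1 on 4, while PAX2 was detected on 1 and NEFH and EYA1 on 0. All 6 mitosis markers (CCNB1, CCNB2, CDC20, CENPF, BUB1 and TTK) were detected on all 6 arrays, and of 6 markers of blood, liver, fibroblasts and endothelium, PTPRC, CD3E, ALB and COL3A1 were detected on 0 and COL1A1 and PECAM1 on all 6.

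Of the 39 kinesin rows, 26 were kept, which were 11 mitotic, 12 transport and 3 other kinesins, and 25 of these were detected on all 6 arrays. The kept transport row of KIF3A, a subunit of the heterotrimeric motor that builds cilia, was detected on 4 arrays only. Over all rows, 13285 of 37879 (35.1%) were kept. Among mitotic kinesins, only KIF2B and KIF18A were not kept, each being detected on 0 arrays. KIF2B encodes a microtubule depolymerase of the kinetochore, and its intensity of 69.0 to 92.5 lay at background, whose means were 74.6 to 92.7 on the 6 arrays. KIF18A, the motor that dampens chromosome oscillations at metaphase, was of another kind. Its intensity of 160 to 287 was above the background mean plus 3 background SDs on all 6 arrays, but its row averages several probes and carries a combined detection p-value of 0.210 to 0.495. Over the table, 467 rows were bright by this measure and not kept, and 0 of them were rows of 1 probe.

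**Figure D1:**
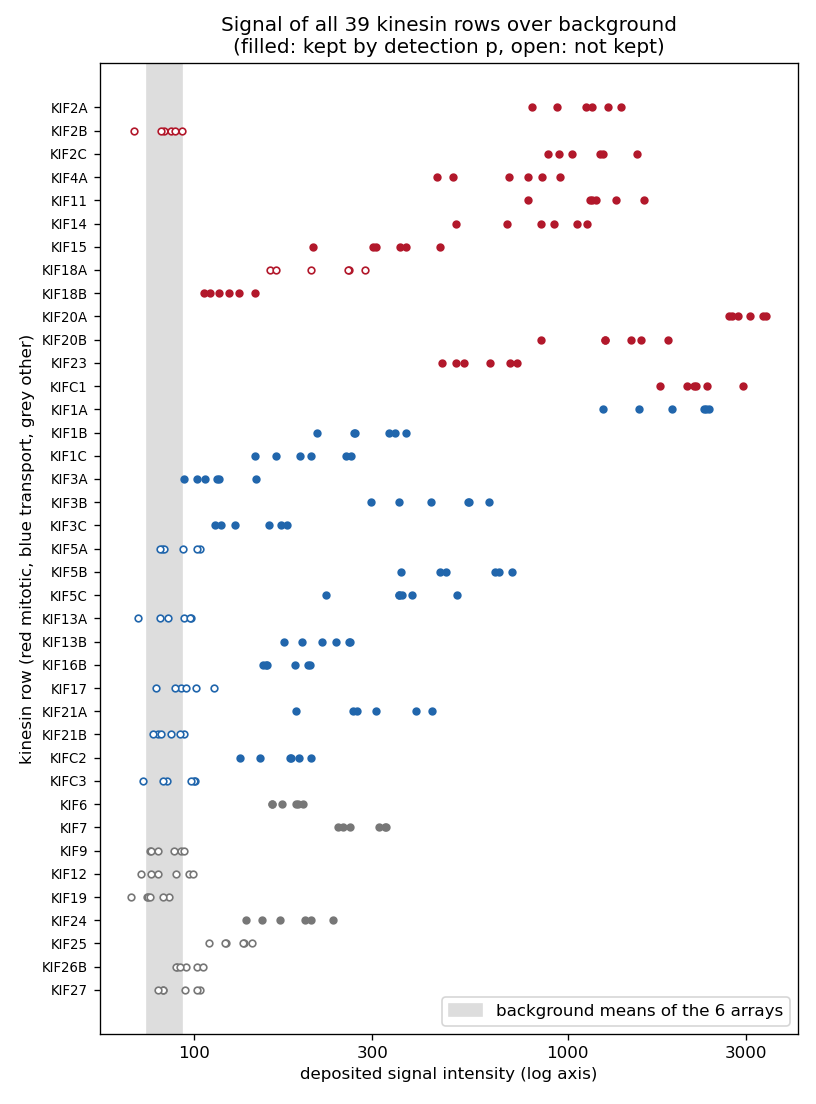
Deposited signal intensity (log axis) of the 39 kinesin rows, with 1 point per array, filled where the row was kept and open where it was not, and the grey band spanning the background means of the 6 arrays. The 26 kept rows include KIF20A at 2713 to 3407, and of the 13 rows that were not kept only KIF18A, at 160 to 287, cleared the background mean by 3 SDs on at least 3 arrays; rows of different genes use different probes and their levels are not comparable with each other.

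TTTGAA stood in most promoters of the mitotic kinesins and in few of the others. In RefSeq (GRCh38.p14), a window of 300 bases, from 250 before the transcription start to 50 from it, was given for 31 of the 39 members. KIF5A, KIF13B, KIF19, KIF21B, KIF26B, KIF27, KIFC2 and KIFC3 had no entry. TTTGAA was searched on both strands, so that TTCAAA also counted, and a gene with several starts counted once if any window held it. It stood in 9 of 13 mitotic promoters (69.2%), in 1 of 12 transport promoters (8.33%) and in 0 of 6 other kinesins, against 4961 of 27305 genes (18.2%) over the whole table. The 9 mitotic matches all began no more than 60 bases before the start, a limit chosen after their positions were seen, and 6.26% of all genes had a match there. CCAAT, a letter group that the factor NF-Y reads in many cell cycle promoters, was searched on both strands and may share bases with other matches. It stood in 9 of 13 mitotic and 4 of 12 transport promoters, against 39.7% of all genes, and both motifs stood in 8 of 13 mitotic promoters against 7.26%. A match describes the letters of a window and is not a measured site. KIF2A, KIF2B, KIF2C and KIF20A were the mitotic members without TTTGAA.

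To show where the core lies, 30 bases around it are given 5′ to 3′ on the strand of the gene, with TTTGAA or TTCAAA in capitals. KIF11, KIF4A, KIF14, KIF23 and KIFC1 are shown as mitotic members described below, KIF18A because its row was not kept, KIF20B because it holds the core in 2 adjacent copies, and KIF5B as the transport gene with a match.
KIF11: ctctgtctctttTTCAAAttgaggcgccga
KIF4A: ctccgggacggaTTTGAAacttggcggtta
KIF14: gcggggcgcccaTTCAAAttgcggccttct
KIF23: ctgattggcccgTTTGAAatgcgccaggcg
KIFC1: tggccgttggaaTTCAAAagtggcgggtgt
KIF18A: aagtggcttgggTTTGAAtattgtggttga
KIF20B: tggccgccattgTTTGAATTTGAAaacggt
KIF5B: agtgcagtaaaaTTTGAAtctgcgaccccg
In GRCh38.p14 these windows are chr10:92593090-92593119 on the plus strand for KIF11, chrX:70290058-70290087 plus for KIF4A, chr1:200620733-200620762 minus for KIF14 and chr15:69414282-69414311 plus for KIF23. They are chr6:33391815-33391844 plus for KIFC1, chr11:28108149-28108178 minus for KIF18A, chr10:89701602-89701631 plus for KIF20B and chr10:32056548-32056577 minus for KIF5B. Counted from the transcription start, the core began at -28 in KIF11, -34 in KIF4A, -55 in KIF23 and -10 in KIF18A, but at -140 in KIF5B. It began at or after the start in KIF14 (1), KIFC1 (4) and KIF20B (24).

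When Stau1 arrays were compared with control arrays, no kinesin row passed the threshold. With limma and Benjamini-Hochberg adjustment over the 13285 kept rows, 0 of the 26 kept kinesins had an adjusted p under 0.05, as did 0 rows (0.0%) of the whole table. The lowest adjusted p among kinesins was 0.999. At an unadjusted p under 0.05, 3 kinesins were counted (11.5%), KIF1A, KIF4A and KIF14, with higher means in Stau1 in each case, against 495 rows (3.73%) over the table and 319 (2.4%) in that direction. In the other direction there were 0 kinesins, against 176 rows (1.32%). The methods' t-test gave 0 kinesins after adjustment and 1, KIF1A, before it. Before adjustment, that test counted 464 rows (3.49%) over the table. The log2 change was positive for 21 of 26 kinesins (80.8%), against 49.4% of all kept rows. The median change was 0.10 over kinesins against -0.0021 over all rows. Under median scaling, which moved the median of all rows to 0.07, 25 of 26 kinesins were positive, against 68.9% of all rows, and 0 had an unadjusted p under 0.05. Kinesins share arrays and are not replicates, so these shares carry no test. In bulk RNA, a different share of cells in mitosis and a different amount of RNA per cell cannot be told apart.

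**Figure D2:**
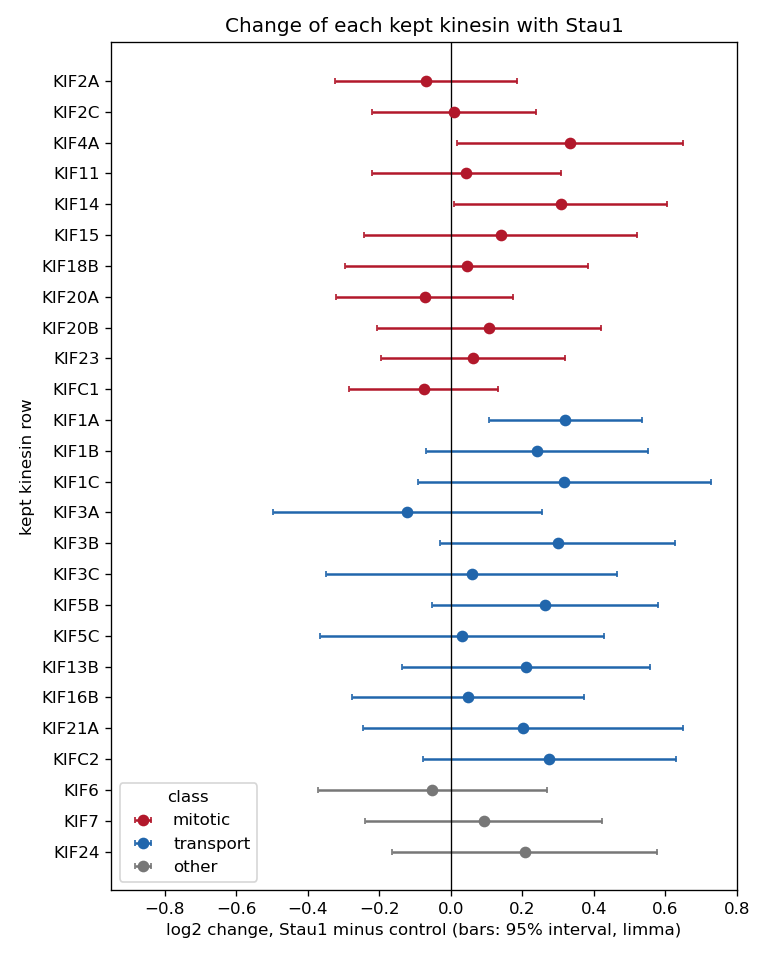
Log2 change of each kept kinesin, Stau1 minus control, from limma with n = 3 arrays a group; bars are 95% intervals, with mitotic kinesins in red, transport kinesins in blue and others in grey. The intervals of KIF1A, KIF4A and KIF14 lie above 0, the others cross 0, and no change passed the adjusted threshold.

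Among the 11 kept mitotic kinesins, the highest changes belonged to KIF4A and KIF14, motors of the late stages of division. KIF4A, on chromosome X, is a chromokinesin that also works with PRC1 in the central spindle. It read 8.94, 8.87 and 9.43 in control replicates 1 to 3 and 9.41, 9.47 and 9.36 in Stau1 (log2 intensity). Control replicates 1 and 2 were low, while control replicate 3 lay among the Stau1 arrays, so the groups overlapped. The change was 0.33 ± 0.15 (SE), a fold of 1.26, with an unadjusted p of 0.0399 and an adjusted p of 0.999 by limma. KIF14, on chromosome 1, encodes a motor that brings citron kinase to the midbody. Its values were 9.15, 9.40 and 9.69 in control and 9.74, 9.80 and 9.62 in Stau1. Control replicate 3 was above Stau1 replicate 3, and control replicate 1 was the lowest. The change of KIF14 was 0.31 ± 0.14 (SE), a fold of 1.24, with an unadjusted p of 0.0437. Without control replicate 1, the change was 0.26 for KIF4A and 0.18 for KIF14, with unadjusted p of 0.099 and 0.168 by limma. Without control replicate 3 the changes were 0.51 and 0.44, and without control replicate 2 they were 0.23 and 0.30.

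For the motors that set up the bipolar spindle and its poles, the 95% intervals of the change spanned 0. KIF11 (Eg5, chromosome 10) slides antiparallel microtubules apart and is the target of drugs that leave cells with a monopolar spindle. It read 9.85, 10.21 and 10.22 in control and 10.21, 10.18 and 10.02 in Stau1. Control replicate 1 was lowest and the other 5 arrays spanned 0.20. The change of KIF11 was 0.04 with a 95% interval of -0.22 to 0.31, and it was -0.06 with array weights and -0.08 without control replicate 1. KIFC1 (chromosome 6), a minus-end-directed motor that gathers spindle poles and centrosomes, read 11.10, 11.10 and 11.15 in control and 11.16, 10.91 and 11.05 in Stau1. Its control values were the least spread of all kept kinesins (SD 0.030), and Stau1 replicate 2 was lowest. The change of KIFC1 was -0.08 (95% interval -0.29 to 0.13), and it was 0.01 under median scaling.

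The intervals also spanned 0 for the kinetochore depolymerase KIF2C and for the midzone motors KIF20A and KIF23. KIF2C (MCAK, chromosome 1), which corrects faulty attachments at kinetochores, read 10.05, 9.91 and 10.16 in control and 10.02, 10.06 and 10.07 in Stau1. The Stau1 arrays lay inside the control range, and the change was 0.01 (95% interval -0.22 to 0.24). KIF20A (MKLP2, chromosome 5), which carries the chromosomal passenger complex to the midzone, read 11.83, 11.48 and 11.38 in control and 11.48, 11.55 and 11.44 in Stau1. Control replicate 1 was the highest array here, unlike in most kinesins. The change of KIF20A was -0.07 (95% interval -0.32 to 0.17), which became 0.06 without control replicate 1 and 0.01 under median scaling. KIF23 (MKLP1, chromosome 15), the motor of centralspindlin, read 9.00, 8.90 and 9.01 in control and 8.96, 9.16 and 8.99 in Stau1. Its groups overlapped, with a change of 0.06 (95% interval -0.19 to 0.32).

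The other kept mitotic kinesins were KIF2A, a depolymerase of spindle poles, at -0.07, KIF15, a plus-end motor that helps to hold the spindle bipolar, at 0.14, KIF18B, a motor of astral microtubules, at 0.04, and KIF20B, which acts in cytokinesis, at 0.11. In each of these 4 the groups overlapped. KIF15 had the widest span of the mitotic kinesins, 0.74 on the log2 scale over the 6 arrays, and control replicate 1 was its lowest array at 7.50. The 8 kept mitotic members with TTTGAA in the promoter had changes of -0.08 to 0.33 with a median of 0.08, and the 3 without it, KIF2A, KIF2C and KIF20A, had changes of -0.07 to 0.01 with a median of -0.07. This split was not tested. KIF18A, tested when no filter was set and under the added intensity filter, read 6.85, 6.77 and 7.39 in control and 7.27, 7.40 and 7.41 in Stau1, a change of 0.36 in both fits. Its unadjusted p by limma was 0.0495 with no filter and 0.0546 under the intensity filter, with adjusted p of 0.999 and 0.998. Control replicate 3 lay among the Stau1 arrays, as it did for KIF4A.

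**Figure D3:**
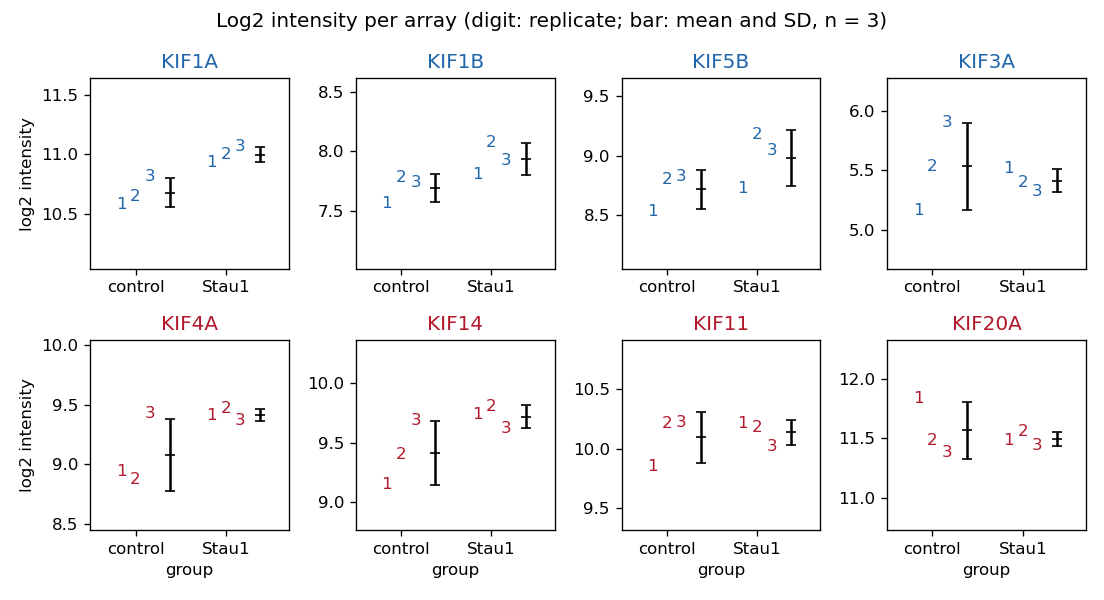
Log2 intensity of 4 transport kinesins (blue, above) and 4 mitotic kinesins (red, below) on each array; digits are replicate numbers, bars give the mean and SD of 3 arrays, and every panel spans the same range around the mean of its gene. In KIF1A and KIF1B all 3 Stau1 arrays lie above all 3 control arrays, while control replicate 3 reaches the Stau1 arrays in KIF4A and KIF14.

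Transport kinesins had a larger median change than mitotic kinesins, a difference that was not tested. It nearly vanished under another background estimate given below, a setting that shrank changes and standard errors together in dimmer rows. Groups did not overlap in 2 of the 26 kept kinesins, KIF1A and KIF1B, both with Stau1 above control. This share was close to that of all kept rows, of which 7.91% did not overlap. Every Stau1 array was above every control array in 4.51% of all kept rows. Every Stau1 array was below every control array in 0 kinesins and in 3.4% of all kept rows. KIF1A (chromosome 2), which carries synaptic vesicle precursors in axons, read 10.58, 10.65 and 10.81 in control and 10.93, 11.00 and 11.07 in Stau1. All Stau1 arrays were above all control arrays, with a gap of 0.12 between control replicate 3 and Stau1 replicate 1. The change of KIF1A was 0.32 ± 0.10 (SE), a fold of 1.25, with an unadjusted p of 0.00666 and an adjusted p of 0.999 by limma. The exact two-sided permutation test over arrays gave p = 0.1, the smallest that 3 against 3 arrays allow. When each array was left out in turn, the change of KIF1A ranged from 0.27 to 0.39. Without control replicate 1, KIF1A was the 1 kinesin of 26 with an unadjusted p under 0.05 by limma (0.0144), against 4.14% of all kept rows.

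KIF1B (chromosome 1), a motor for mitochondria and synaptic vesicle precursors, read 7.56, 7.78 and 7.74 in control and 7.80, 8.08 and 7.92 in Stau1. All Stau1 arrays were higher, but Stau1 replicate 1 exceeded control replicate 2 by only 0.02. The change was 0.24 ± 0.14 (SE) with an unadjusted p of 0.117 by limma. It was 0.05 ± 0.03 (SE) when the background was taken from the detection p-values of all rows, with an unadjusted p of 0.113. KIF1C, a motor of vesicles and of some mRNAs, changed by 0.32 with overlapping groups.

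Of the conventional kinesin heavy chains, KIF5B (chromosome 10) is the form used in most tissues. It read 8.53, 8.80 and 8.83 in control and 8.72, 9.18 and 9.04 in Stau1. Stau1 replicates 2 and 3 were highest and Stau1 replicate 1 lay within the control arrays. The change of KIF5B was 0.26 ± 0.15 (SE), with an unadjusted p of 0.0965. It was 0.16 without Stau1 replicate 2 and 0.17 without control replicate 1. With background from all rows it was 0.14 ± 0.08 (SE), with an unadjusted p of 0.0995 by limma. KIF5C, found mainly in neurons, had a change of 0.03 that was -0.20 without control replicate 1, and KIF5A, likewise neuronal, was detected on 1 array and not kept. The genes of the heterotrimeric kinesins gave unlike values. KIF3A (chromosome 5) read 5.17, 5.53 and 5.90 in control and 5.51, 5.40 and 5.32 in Stau1, so that the Stau1 arrays lay inside the control range. Its change of -0.12 (95% interval -0.50 to 0.26) was the lowest of the kept kinesins, and it was 0.06 without control replicate 3. KIF3B, its partner in the motor, changed by 0.30 with an unadjusted p of 0.0723 by limma. KIF3C (chromosome 2), an alternative partner of KIF3A, had the largest SD among Stau1 arrays, 0.34, with 5.93, 6.11 and 6.39 in control and 5.83, 6.48 and 6.29 in Stau1. Its groups overlapped and the change was 0.06.

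KIF21A (chromosome 12), a motor that restrains microtubule growth, had the largest SD among control arrays. It read 7.26, 7.76 and 8.15 in control and 7.83, 8.19 and 7.75 in Stau1, with a control SD of 0.45. Control replicate 1 was 0.50 below the next array. The change of 0.20 became -0.03 without that array. KIF13B, a motor of membrane proteins, KIF16B, a motor of early endosomes, and the minus-end motor KIFC2 changed by 0.21, 0.05 and 0.28 with overlapping groups. KIF13A, KIF17, KIF21B and KIFC3 were detected on 0 arrays, at intensities of 70.7 to 113.

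Of the other kinesins, KIF7, a Hedgehog regulator at the ciliary tip, KIF24, a centriole protein that restrains cilium formation, and KIF6 were detected on all 6 arrays. Their changes were 0.09, 0.21 and -0.05, with overlapping groups. KIF25 was detected on 2 arrays and KIF26B on 1, while KIF9, KIF12, KIF19 and KIF27 were detected on 0. The 13 kinesins that were not kept, KIF18A left out, had intensities of 67.9 to 143.

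**Figure D4:**
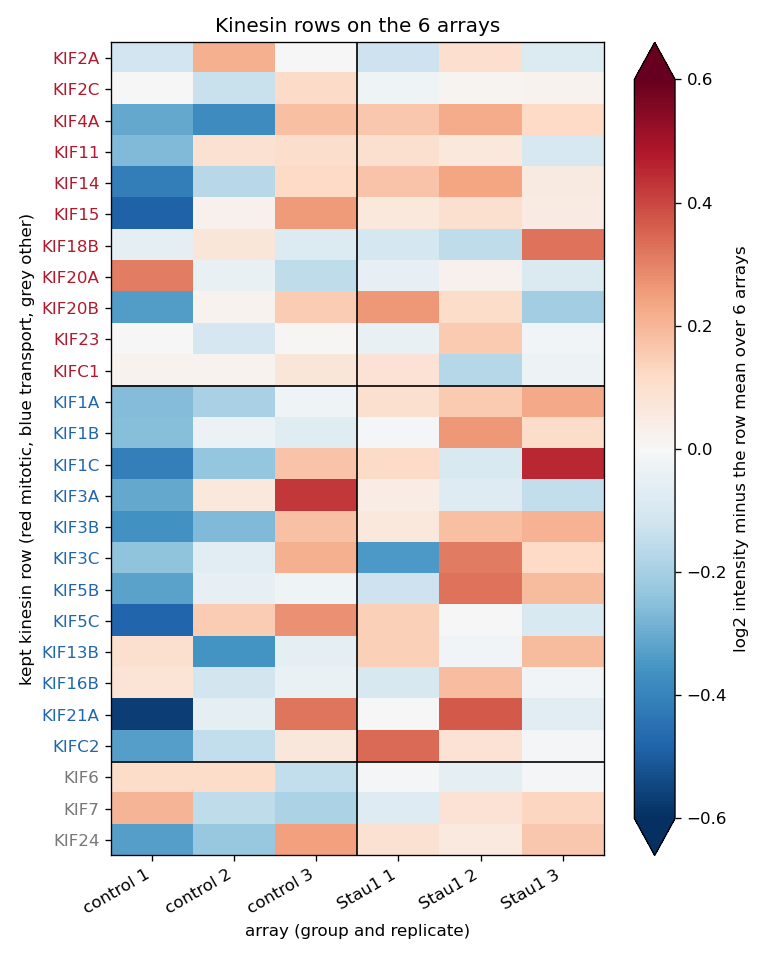
Log2 intensity of each kept kinesin on the 6 arrays, minus the mean of its row, with mitotic kinesins at the top, transport kinesins in the middle and others at the bottom; blue is below and red above the row mean. Control replicate 1 is the lowest of the 6 arrays in 14 of the 26 rows, 9 of them transport kinesins.

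Control replicate 1 was low for many kinesins. This array was the lowest of the 6 for 9 of 12 transport kinesins (75.0%), 4 of 11 mitotic kinesins (36.4%) and 14 of all 26 kinesins (53.8%), against 25.5% of all kept rows. The median deviation of transport kinesins from their own means was -0.31, -0.09 and 0.12 in control and 0.05, 0.17 and 0.11 in Stau1. Control replicates 1 and 2 were the low arrays and control replicate 3 was among the Stau1 arrays. For mitotic kinesins the same medians were -0.12, 0.02 and 0.11 in control and 0.06, 0.10 and -0.02 in Stau1, with the groups overlapping widely. Array weights from limma, which are higher for arrays that deviate less, were lowest for control replicate 1 (0.399) and highest for Stau1 replicate 3 (3.33). Stau1 replicate 2 was the highest array for 8 of 26 kinesins (30.8%), 5 of them transport kinesins, against 11.7% of all kept rows. What set these arrays apart was not tested.

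The median change of the 12 transport kinesins was 0.23, with 11 positive (91.7%), and that of the 11 mitotic kinesins was 0.04, with 8 positive (72.7%). Without control replicate 1, these medians were 0.17 and 0.01, and the positive changes numbered 8 of 12 and 6 of 11, against 49.4% of all kept rows. Without Stau1 replicate 2 the medians were 0.17 and 0.02, with 9 of 12 and 8 of 11 positive. Over the 6 fits that each left out 1 array, the transport median ranged from 0.17 to 0.29 and the mitotic median from 0.01 to 0.09. With all arrays, the transport and mitotic medians were 0.16 and 0.04 without background correction, and 0.19 and 0.04 with an offset of 50. They were 0.23 and 0.04 with cyclic loess, 0.20 and 0.05 with array weights, and 0.14 and 0.04 with no filter. Under median scaling they were 0.31 and 0.12, where the median of all rows was 0.07. When the background was taken from all rows, both medians were 0.03, so that the difference between the classes nearly vanished. Changes were positive there in 10 of 12 transport and 8 of 11 mitotic kinesins. That setting shrank changes and standard errors together in dimmer rows. KIF1C went from 0.32 ± 0.19 to 0.04 ± 0.02 (SE), with unadjusted p of 0.118 and 0.110 by limma. The change of the brighter KIF1A rose to 0.43. The smaller medians are therefore not on the scale of the main fit. Without control replicate 3, 39 rows of the table passed the adjusted threshold (0.294%), of which 0 were kinesins. In that fit 8 of 26 kinesins had an unadjusted p under 0.05, against 12.7% of all rows, and the lowest adjusted p by limma were 0.118 for KIF4A, 0.152 for KIF1A and 0.187 for KIF14.

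**Figure D5:**
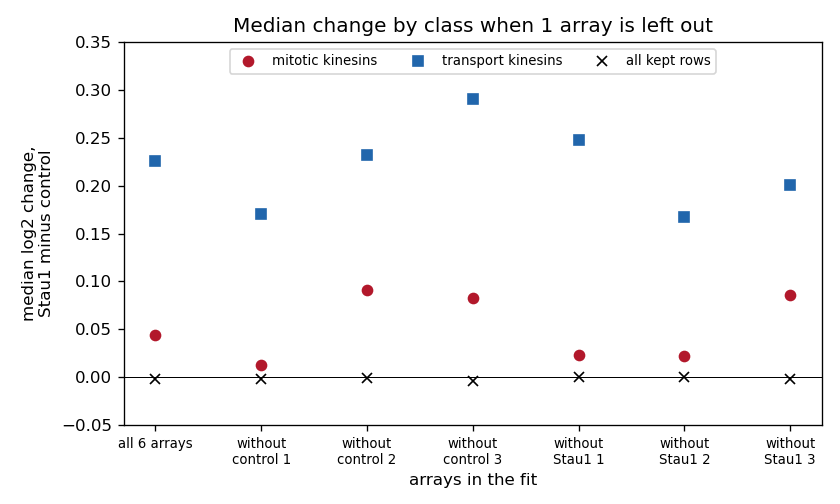
Median log2 change, Stau1 minus control, of the kept mitotic kinesins (11 rows, circles), transport kinesins (12 rows, squares) and all kept rows (13285 rows, crosses), with all 6 arrays and with each array left out. The transport median lies between 0.17 and 0.29 and the mitotic median between 0.01 and 0.09 without 1 array, while all kept rows stay near 0.

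The proteins that work with the kinesins were read from lists of partners. Every Stau1 array was above every control array in 4.51% of all kept rows and below in 3.4%. These counts were 1 and 0 of 10 kept mitotic partners and 1 and 1 of 9 kept transport partners. For dynein and dynactin they were 2 and 1 of 18 kept rows. Of 12 mitotic partners, 10 were kept and 0 passed the adjusted threshold in either direction, with a median change of 0.10. The lowest unadjusted p belonged to INCENP, the scaffold of the chromosomal passenger complex that KIF20A carries, which read 7.46, 7.25 and 7.43 in control and 7.61, 7.66 and 7.83 in Stau1. All Stau1 arrays were above all control arrays, and the change was 0.32 with an unadjusted p of 0.0428 by limma. The other subunits of that complex, AURKB, BIRC5 and CDCA8, changed by -0.04, 0.02 and -0.03. RACGAP1, which forms centralspindlin with KIF23, was not kept although its intensity was 647 to 1142, the same case as KIF18A.

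Of 12 transport partners, 9 were kept and 0 passed, with a median change of 0.01. TRAK1, which links KIF5 motors to mitochondria, read 8.02, 8.07 and 8.13 in control and 8.26, 8.33 and 8.33 in Stau1. The groups did not overlap, and the change was 0.23 with an unadjusted p of 0.093 by limma. KLC3, a light chain, also did not overlap but in the opposite direction, with a change of -0.24 and an unadjusted p of 0.109 by limma. Its intensity of 109 to 145 was near background and did not clear the background mean by 3 SDs on at least 3 arrays. KIFAP3, the third subunit of the KIF3 motor, and KLC1, a light chain of the KIF5 motors, changed by 0.01 and 0.07. Dynein, which moves along microtubules the opposite way to most kinesins, and dynactin, which works with it, gave 18 kept rows of 19. Of these, 0 passed, and the median change was 0.02. DYNC1H1, the dynein heavy chain, had the lowest unadjusted p of this list, 0.00747, with 9.58, 9.15 and 9.47 in control and 9.74, 9.76 and 9.94 in Stau1. All its Stau1 arrays were above its control arrays, and the change was 0.41 (adjusted p = 0.999 by limma). NDE1, a dynein regulator, was likewise above control on all Stau1 arrays, with a change of 0.20. DYNC1I1, a dynein intermediate chain, was below control on all Stau1 arrays, with a change of -0.28 and an unadjusted p of 0.0655 by limma. Its intensity of 110 to 160 was likewise near background by the measure used for KLC3.

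The mitosis markers gave no shift in one direction, with 2 of 6 changes positive and a median of -0.04. CENPF, a kinetochore protein, was the marker with an unadjusted p under 0.05. It read 9.22, 9.58 and 9.03 in control and 9.07, 8.78 and 8.89 in Stau1, a change of -0.36 with an unadjusted p of 0.0301 by limma, and the groups overlapped. Their part in the kinesin changes was not tested.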

How the data were processed

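Total RNA of 6 samples was hybridized to Illumina HumanWG-6 arrays, and the deposited BeadStudio table gave, for each row, the signal intensity, which was not normalized, with its bead standard error, the number of beads and a detection p-value. The authors recorded these intensities and detection p-values with BeadStudio, whose version is not given in the sources used here. Each row is named by a gene symbol, and 30932 of 37879 rows were found to hold 1 probe (whole numbers of beads and detection p in steps of 1 in 759, tolerance 0.002). Rows of several probes average them. The kept kinesins included 18 rows of 1 probe and 8 of several.

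Groups came from the transfection given in the labels. Background was corrected by normexp with background taken from the detection p of rows of 1 probe (offset 16), followed by quantile normalization and log2. A row was kept where 3 or more arrays gave it a detection p under 0.05. limma 3.58.1 in R 4.3.3 (lmFit, eBayes with a variance trend) was fitted on all kept rows, with Benjamini-Hochberg adjustment and a threshold of 0.05. On simulated data for this comparison (13285 rows, 200 changed), 99.5% of 2-fold and 62.5% of 1.5-fold changes were recovered, and 8.72% and 8.76% of the calls were false. Both false shares were above the threshold of 0.05. The simulated noise was independent between rows, and deviations shared by rows of an array were not simulated. The highest fold of a kept kinesin was 1.26, below both simulated sizes. Kept kinesins rested on 24.0 to 57.0 beads per array, with bead standard errors of 0.029 to 0.12 on the log2 scale. Their SDs between the 3 arrays of a group were 0.030 to 0.45 in control and 0.023 to 0.34 in Stau1. How far beads or the number of arrays limit the precision was not tested.

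Members, classes and lists were chosen with earlier results of these data known. A marker of the cell line list is not reported here. Genes were named by a rule: the examples KIF11, KIF20A, KIF23, KIF2C, KIFC1, KIF5B, KIF1B and KIF3A, members whose groups did not overlap, the 3 lowest p in each direction, the largest SD in each group, and the lowest p of each partner list; other values are given as summaries or because a result touched them. Alternatives changed the background, offset, normalization, filter, variance model, array weights, replicate block, test, class membership and arrays. Samples sharing a replicate number deviated with correlations of 0.015, 0.26 and -0.14. These values, from 3 arrays a group, cannot decide whether replicate numbers pair the samples. The main fit used no replicate block.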

Additional observations from a re-analysis of the deposited data

How the results depend on the processing

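The count of kinesins past the adjusted threshold was 0 under every alternative run, among them the replicate block (0 kinesins and 0 rows called by limma). With that block, 5 kinesins and 604 rows had an unadjusted p under 0.05, against 3 and 495 in the main fit. Over all rows the count past the adjusted threshold was 0 as well, except without control replicate 3, so that it ranged from 0 to 39 when each array was left out. With array weights 0 rows passed, the lowest adjusted p by limma was 0.0551 and 1298 rows had an unadjusted p under 0.05. The t-test that the methods give for immunoprecipitated RNA, run here on the values of the main fit, gave 0 and 464. The transport median moved from 0.226 to 0.0332 with background from all rows. Standard errors of dimmer rows shrank as well, for KIF1C from 0.19 to 0.022, and the cause was not tested. An intensity filter, chosen after seeing the data, gave 0 called of 10868 rows.

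Of the 26 kept kinesins, 7 turned sign under an alternative that kept all arrays. These were KIF11 (-0.0623), KIF20B (-0.0547) and KIF5C (-0.106) with array weights, KIF5C also with background from all rows (-0.0015), and, under median scaling, KIF2A (0.0148), KIF6 (0.0208), KIF20A (0.00978) and KIFC1 (0.0137). Median scaling moved the median of all rows to 0.07. When each array was left out, 12 turned sign at least once, 7 of them without control replicate 1. Among the genes named by rule, changes ranged from -0.0556 to 0.0687 for KIF2C, -0.305 to 0.0611 for KIF3A, -0.0826 to 0.244 for KIF3C, -0.0779 to 0.108 for KIF11, -0.168 to 0.0606 for KIF20A and -0.0302 to 0.414 for KIF21A. The other 6 were KIF2A, KIF5C, KIF15, KIF16B, KIF18B and KIF20B, and KIF23 came to 0.000584 without Stau1 replicate 2. KIF3A gave no value under the stricter detection filter or the intensity filter, and KIF3C none under the stricter filter. Rows near background, such as KIF3A, KIF3C and KIF18B, carry compressed changes after the offset.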
